A study of Mus musculus with 8 samples.

Results

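Of 49587 open chromatin regions in the livers of fasted mice, 487 had a peak in all 6 libraries of wild type, Cpt2 knockout and Ppara knockout livers and in neither of the 2 double knockout libraries. These 487 regions are described here and are called the missing regions. They were chosen from the peak calls themselves, so their presence in 3 genotypes and absence from double knockout is how they were found, not a result. For a region to be called in a library, 1 of that library's peaks had to overlap it by at least 1 bp.

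The assay was ATAC-seq, which tags accessible DNA with a transposase, on flash-frozen livers of male C57BL/6 mice aged 9 weeks after a 24 h fast. The 4 genotypes, with 2 libraries each, were wild type, Cpt2 L-/- (a liver knockout), Ppara -/- and the combination Cpt2 L-/-; Ppara -/-, in which the Ppara loss is whole-body. All 4 groups were fasted, and no fed group is part of the data. The labels do not say which Cre drives the liver deletion, nor whether the 2 libraries of a genotype come from separate mice. Whole liver was used, so fewer cells with an open region and less opening in each cell cannot be told apart.

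In fasting, fat stores release fatty acids that the liver burns in mitochondria and turns into ketone bodies. CPT2, on the inner mitochondrial membrane, re-forms acyl-CoA from acylcarnitine so that long-chain fatty acids can be oxidised. PPARα is a nuclear receptor that fatty acids activate, and with its partner RXR it binds DNA at paired half-sites called DR1 and turns on genes of fatty acid oxidation and ketogenesis. Open regions in liver mostly mark promoters, at the starts of genes, and enhancers, which can lie inside genes or far from them.

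The libraries differed in how many peaks they held. Wild type and Cpt2 knockout lists had 28733 to 39296 peaks, Ppara knockout lists had 20340 and 18283, and double knockout lists had 22715 and 18132. The double knockout lists were therefore close in length to the Ppara knockout lists. The authors' caller gives each peak a −log10 p, and the weakest peak listed had 7.11 to 7.82 depending on the library. A missing region is one with no peak above this limit in double knockout, and its signal below the limit is unknown. A number in the peak names was 6833 and 6834 for Ppara knockout and 6831 and 6832 for double knockout, and 441 to 4717 for the other genotypes. What it marks is not given in the sources used here. Hepatocyte markers had a called region within 1 kb of a gene end for 8 to 10 of 10 genes in every library. None of 5 Kupffer and leukocyte markers had one in any library. Of 15 endothelial, stellate and cholangiocyte markers, 4 to 6 had one in each wild type and Cpt2 knockout library and 0 to 2 in each Ppara knockout and double knockout library. The part of these other cell types in the missing regions was not tested.

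For 86 coding gene promoters the whole RefSeq window, 250 bases before to 50 after the start, lay inside a missing region. The 4 in the strongest regions are shown first, because these regions include an annotated start. Promoters that a missing region covered in part, such as that of Snrpa1, were not eligible. Each line gives the 250 bases before the annotated start on the gene's strand, from RefSeq on GRCm38.p6, the assembly of mm10. Capitals mark matches to the searched motifs, which are named after the sequences.
Rnf7, minus strand, chr9:96478676-96478925: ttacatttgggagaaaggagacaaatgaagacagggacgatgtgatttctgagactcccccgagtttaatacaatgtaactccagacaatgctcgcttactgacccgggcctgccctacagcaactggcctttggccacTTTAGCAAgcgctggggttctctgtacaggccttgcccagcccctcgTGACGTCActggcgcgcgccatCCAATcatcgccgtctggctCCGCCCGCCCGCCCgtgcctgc
Mcrs1, minus strand, chr15:99251962-99252211: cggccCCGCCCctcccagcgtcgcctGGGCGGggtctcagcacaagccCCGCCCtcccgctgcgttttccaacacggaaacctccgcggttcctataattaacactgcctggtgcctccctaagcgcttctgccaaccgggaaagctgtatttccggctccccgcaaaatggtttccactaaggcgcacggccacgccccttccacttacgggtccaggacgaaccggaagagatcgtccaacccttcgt
Mfsd7a, minus strand, chr5:108449101-108449350: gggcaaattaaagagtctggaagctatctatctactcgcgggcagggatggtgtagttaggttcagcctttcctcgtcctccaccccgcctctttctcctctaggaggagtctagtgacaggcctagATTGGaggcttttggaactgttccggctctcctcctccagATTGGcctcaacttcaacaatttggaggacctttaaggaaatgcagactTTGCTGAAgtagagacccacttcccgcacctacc
Cyp2a22, minus strand, chr7:26939387-26939636: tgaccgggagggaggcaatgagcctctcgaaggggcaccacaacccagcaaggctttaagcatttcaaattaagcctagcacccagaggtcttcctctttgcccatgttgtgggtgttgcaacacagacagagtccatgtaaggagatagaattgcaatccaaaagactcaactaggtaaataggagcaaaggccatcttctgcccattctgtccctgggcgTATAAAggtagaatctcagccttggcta

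The 4 sequences differ in kind. Rnf7 encodes a RING subunit of cullin ubiquitin ligases, and its promoter held 16 CpG dinucleotides in these 250 bases, a C/EBP match at -111, a cAMP response element TGACGTCA that begins at -64, a CCAAT box at -42 and 3 overlapping SP motifs from -22. Mcrs1, which encodes microspherule protein 1, had 23 CpG dinucleotides and 3 SP motifs between -245 and -202. Mfsd7a, a member of the major facilitator transporter superfamily, had 6 CpG dinucleotides, CCAAT boxes read on the other strand at -123 and -83 and a C/EBP match at -34. Cyp2a22, a cytochrome P450 of the Cyp2a family, had 3 CpG dinucleotides and a TATA box at -28.

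The count of missing regions was read against the same count for the other genotypes. Of 13378 regions called in the 6 libraries of the other genotypes, 487 were missing from both double knockouts, which is 3.64% (Wilson 95% interval 3.34 to 3.97, counting error over regions alone). A further 1633 (12.2%) were missing from 1 double knockout library, of which 1372 were called in double knockout 1 and 261 in double knockout 2. With Ppara knockout in the place of double knockout, 645 of 14071 regions were missing from both libraries (4.58%, 4.25 to 4.94) and 2168 from 1. In wild type 38 of 11465 regions (0.331%) were missing in this way, and in Cpt2 knockout 6 of 11311 (0.053%). The lists of these genotypes were longer, with 28733 to 39296 peaks against 18132 to 22715. Their counts in lists of equal length are not given here, so list length is mixed into this contrast. By share, the order of double knockout and Ppara knockout turned only without double knockout 1. By count it turned without Ppara knockout 2 as well. Without double knockout 1 the counts were 1859 (13.9%) for double knockout and 955 (6.37%) for Ppara knockout. Without Ppara knockout 2 they were 1248 (7.4%) and 1228 (8.73%). Without double knockout 2 they were 748 (5.59%) and 1763 (9.8%), and without Ppara knockout 1 they were 989 (6.55%) and 2230 (15.8%). In each of these the genotype with a library left out had to be missing from 1 library and the other from 2. In lists cut to equal numbers of peaks 203 regions (2.01%) met the rule, 99 of them among the 487. The mirrored count in these lists was 257 (2.45%). With peaks required to cover at least 50% of a region the share was 6.26%. No test can be made of peak calls that chose the members.

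The missing regions had weaker peaks than regions called in all 8 libraries, and in Ppara knockout their medians lay low in the lists. Strength is given as the percentile of a peak's −log10 p within its library's list. The median percentile was 36.5 and 51.5 in wild type, 55.9 and 49 in Cpt2 knockout, and 26.7 and 29.6 in Ppara knockout. Regions called in all 8 libraries had medians of 78.6 and 82.9, 84 and 82.2, and 70.3 and 66.8 in the same libraries. Averaged over the 6 libraries, the median missing region stood at percentile 41.3 (quartiles 33.2 and 50.1, range 8.64 to 80.8). In 123 of 487 this mean was at least 50, in 2 at least 75, and in 81 the region was under 50 in every one of the 6 libraries. The most similar sets were weak too, beside a median of 74.8 for regions called in all 8 libraries. Regions missing from 1 double knockout had 51.3. Regions missing only in Ppara knockout had 46.9 over their own 6 libraries, with medians of 36.9 and 31 in the double knockout lists. Among the 6 calling libraries, those of Ppara knockout had the lowest values, for the missing regions and for listed peaks in general. The median −log10 p of the missing regions was 15.8 and 15.1 there, against 21.6 and 38 in wild type and 40 and 31.4 in Cpt2 knockout. Over all listed peaks it was 21.3 and 19.5, against 28.4 and 36.7, and 34.5 and 32.2. Lower Ppara knockout values at the single regions named below are to be read beside these medians. The deposited fold, the pileup at the summit over the local background, had medians of 5.2 and 5.1 in Ppara knockout, 5.88 and 8 in wild type and 7.85 and 6.84 in Cpt2 knockout. By the mean of 2 libraries the fold was lowest in Ppara knockout for 435 of the 487, in wild type for 27 and in Cpt2 knockout for 25. In 223 (45.8%) both Ppara knockout folds lay under all 4 wild type and Cpt2 knockout folds, and in 1 both lay over them. Among regions called in all 8 libraries the share under was 76.1%, larger than among the missing regions. The count of 435 was not made for other regions. Listed peaks are those above the caller's limit, so folds below it are not seen.

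**Figure D1:**
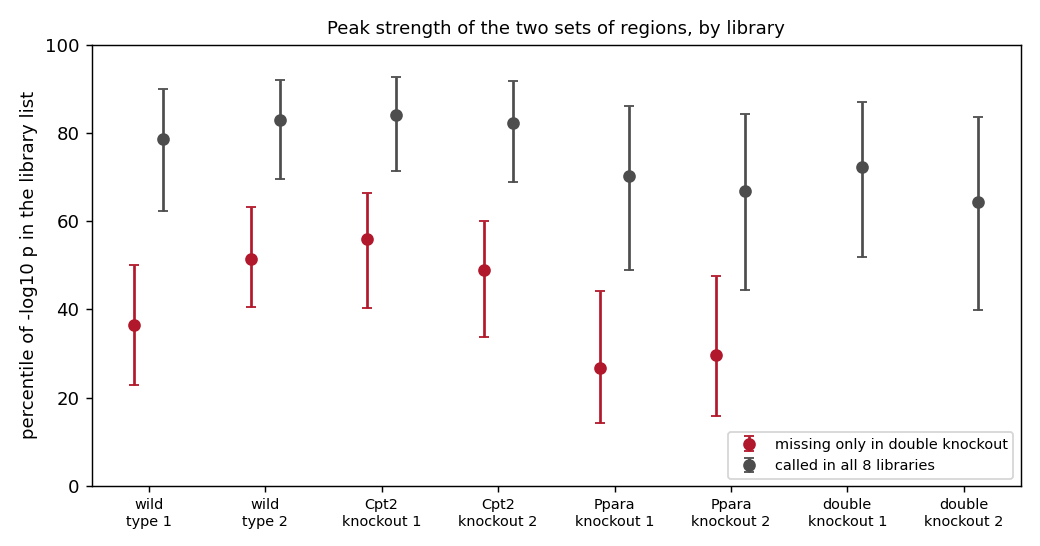
Percentile of −log10 p within each library's list for the 487 missing regions (red) and the 11258 regions called in all 8 libraries (grey). Points are medians over regions and bars run from the lower to the upper quartile. The red medians lie between 26.7 and 55.9 and the grey ones between 64.4 and 84, and double knockout has no red point because the rule leaves none.

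The share of regions missing from double knockout is described here by their strength in Ppara knockout. The 13378 regions called in the other 6 libraries were put into 10 equal parts by their mean percentile in the Ppara knockout lists. In the weakest of these parts, 193 of 1338 regions were missing from both double knockouts (14.4%, Wilson 95% interval 12.6 to 16.4). Counted up from the weakest, the share was 8.82% in part 2, 4.04% in part 4, 0.897% in part 6 and 0.0747% (1 region) in part 8. In each of the 2 strongest parts 0 of 1338 were missing, which allows a share of up to 0.224%. The mirrored count, regions missing from Ppara knockout by strength in double knockout, ran from 14.5% in the weakest part to 0 of 1407 in the strongest, which allows up to 0.213%. In parts 3 and 4 the mirrored shares were 8.17% and 7.53%, above the 5.9% and 4.04% of the missing regions. Where 1 double knockout library did call such a region, its peak was weak too. The median −log10 p of the lone peak was 17.6 in double knockout 1 and 14.9 in double knockout 2, at percentiles 34.3 and 23.6 of those lists. The rule required a peak in Ppara knockout, so the strength axis shares those libraries with it and these shares are a description. Regions were not divided by strength in wild type or Cpt2 knockout, where the missing regions were weaker as well, so no tie particular to Ppara knockout is shown.

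**Figure D2:**
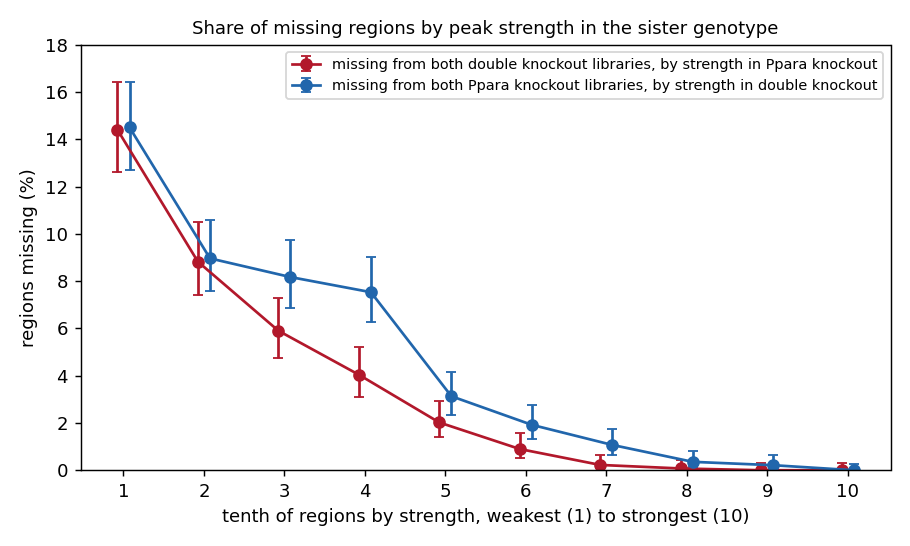
Percent of regions missing from both double knockout libraries, in 10 equal parts by mean peak percentile in Ppara knockout (red), and percent missing from both Ppara knockout libraries, in 10 equal parts by strength in double knockout (blue). Bars are Wilson 95% intervals over regions. Both lines start near 14% in the weakest part (14.4% and 14.5%) and come to 0 in the strongest.

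The 10 strongest missing regions, ranked by mean percentile, were read one by one. The strongest lay on chromosome 1 at 136686468 to 136686897 (mm10), outside genes and 56077 bp from Zfp281, which encodes a zinc finger transcription factor of pluripotent cells. Its −log10 p was 65.1 and 86.6 in wild type, 131 and 71.9 in Cpt2 knockout, and 30.3 and 28.5 in Ppara knockout. The next lay on chromosome 12 at 110244603 to 110245096, 34134 bp from Dio3, the deiodinase that inactivates thyroid hormone. Its −log10 p was 87.6 and 119 in wild type, 153 and 70.3 in Cpt2 knockout, and 25.3 and 24.4 in Ppara knockout. At both sites the Ppara knockout values lay under those of every other calling library, and the nearest double knockout peak was 11610 and 13484 bp away. Of the 10 other regions assigned to Zfp281 and the 22 others assigned to Dio3, 2 and 7 were called in both double knockouts. Double knockout 2 called 17614 of all 49587 consensus regions, so most regions were not called in both. These 2 regions and the one inside Arhgap24 still met the rule when only peaks with a −log10 q of at least 20 were used.

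Inside genes, the strongest missing regions lay in Arhgap24, Celsr3 and Zfp516. The region in Arhgap24 on chromosome 5 at 102817643 to 102818033 had a −log10 p of 31.3 and 92.6 in wild type, 79.2 and 44.7 in Cpt2 knockout, and 30.3 and 38.6 in Ppara knockout. Here the groups overlapped, since Ppara knockout 2 was above wild type 1. Celsr3 encodes an atypical cadherin of planar cell polarity. Its region on chromosome 9 at 108832307 to 108832883 had values of 47.7, 144, 90.1 and 64.5 in the wild type and Cpt2 knockout libraries and 30.3 and 16.9 in Ppara knockout. Zfp516, a zinc finger factor known from thermogenic fat, held a region on chromosome 18 at 82921473 to 82921996 with values of 76.6, 79.7, 112 and 74.2 against 16.1 and 24.6. This site was 203766 bp from the nearest double knockout peak. None of the 7 other regions of Zfp516 was called in both double knockouts, but neither were most consensus regions.

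The other strong regions outside genes were assigned to Ap5s1, Hes1 and Ube2q2. The region 8549 bp from Ap5s1, a subunit of the AP-5 adaptor complex (chromosome 2, 131222063 to 131222505), had a −log10 p of 47.2 and 80.5 in wild type, 88.2 and 112 in Cpt2 knockout, and 22.6 and 18.1 in Ppara knockout. The region 121004 bp from Hes1, a repressor that Notch signalling induces (chromosome 16, 29943973 to 29944353), had 36.3, 74.9, 83.8 and 54 against 21.6 and 21.5. The region 38518 bp from Ube2q2, a ubiquitin-conjugating enzyme (chromosome 9, 55110461 to 55110851), had 20, 70, 72.5 and 48.9 against 35.9 and 25.7. At Ube2q2 wild type 1 was the lowest of the 6, and with lists cut to the same number of peaks 5 of the 6 libraries called this region. The other 9 of the 10 strongest met the rule with such lists as well.

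**Figure D3:**
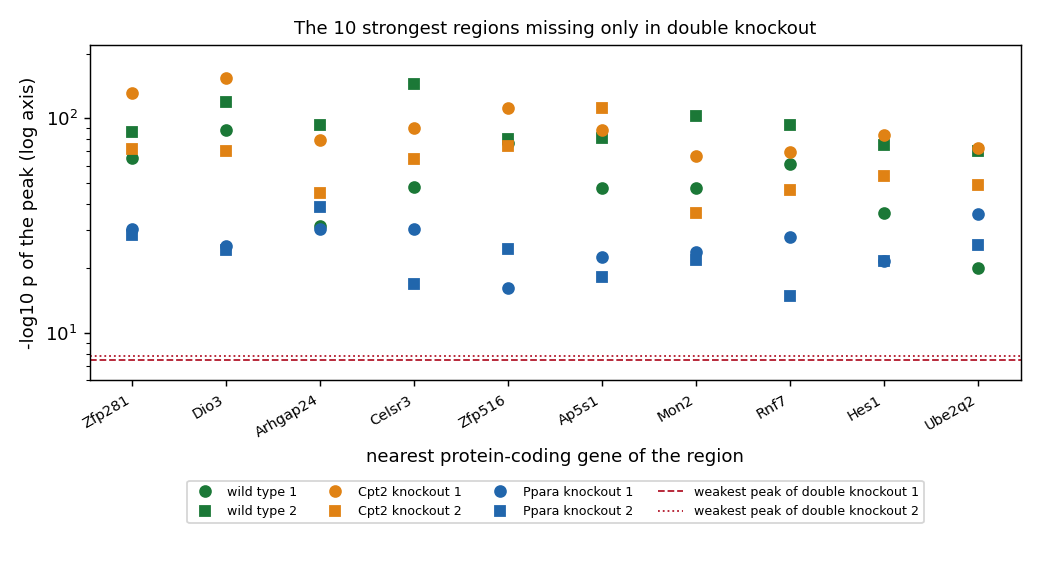
−log10 p of the peak in each of the 6 calling libraries (log axis) for the 10 strongest missing regions, named by their nearest protein-coding gene. Green is wild type, orange Cpt2 knockout and blue Ppara knockout, circles are library 1 and squares library 2. The red lines mark the weakest peak listed in double knockout 1 (7.46) and 2 (7.77), and all points lie above them.

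At gene ends, the 5 strongest missing regions were at Mon2, Rnf7, Kalrn, Mcrs1 and Snrpa1. Mon2 encodes a protein of endosome to Golgi transport. Its region on chromosome 10 at 123076115 to 123076743 overlapped an end of the annotated gene span, and whether that is the gene's start is not given here. The −log10 p there was 47.2 and 102 in wild type, 66.9 and 36.1 in Cpt2 knockout, and 23.7 and 21.8 in Ppara knockout. The Rnf7 promoter region (chromosome 9, 96478222 to 96478959) had 61 and 93.1, 69.5 and 46.2, and 27.9 and 14.8. It lay 46785 bp from the nearest double knockout peak. The region 159 bp from Kalrn had 34 and 86.4, 49.8 and 73.2, and 17.3 and 31 (chromosome 16, 34573436 to 34574028). In all 3 the Ppara knockout values were the lowest.

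The promoter regions of Mcrs1 and Snrpa1 complete the 5. That of Mcrs1 (chromosome 15, 99251655 to 99252381), whose sequence is shown above, had values of 56.5 and 80.3 in wild type, 99.2 and 84.5 in Cpt2 knockout, and 16.5 and 11.7 in Ppara knockout, where it ranked at percentiles 30.2 and 9.39. The promoter region of Snrpa1, a component of the U2 small nuclear ribonucleoprotein (chromosome 7, 66060103 to 66060859), had 38.2 and 48.5, 62.4 and 51.9, and 20.1 and 21.7. The Cyp2a22 region stood lower among those at gene ends, and the Mfsd7a region, which covers a start of that gene, was 1307 bp from the nearest end of its annotated span. Cyp2a22 had 55.7 and 131, 55.3 and 41.2, and 14.9 and 19. None of its 7 other regions was called in both double knockouts, but neither were most consensus regions. Mfsd7a had 23.5 and 53, 48.7 and 47.9, and 29.2 and 23.9, so that wild type 1 was the lowest there.

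The 3 weakest missing regions had a −log10 p of at most 20.2 in every calling library. The lowest mean percentile, 8.64, belonged to a region 765 bp from an end of Mapkapk2, a kinase downstream of p38 (chromosome 1, 131096756 to 131097106), where −log10 p ran from 9.77 to 14.9. The next were 4070 bp from Ubl4b (10.9 to 17.7) and inside Prkag2, a regulatory subunit of the energy sensor AMPK (9.4 to 20.2). In equal-number lists these 3 were called by 1 or 2 of the 6 libraries.

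Distance to the nearest double knockout peak varied widely. The median gap was 11610 bp, with quartiles of 4834 and 28486 bp, and 27 missing regions lay over 100 kb from any double knockout peak. In 32 the gap was at most 500 bp. The nearest were at Yap1, the effector of Hippo signalling (33 bp), Phf14 (65 bp) and Fgd6 (134 bp), and the farthest at Ybx3 (1183185 bp), at the shared end of 2610002M06Rik and Tent5d (1017837 bp) and inside Olfm3 (509166 bp). Just outside the rule stood regions that a double knockout peak touched over the smallest share of their length. These were at Mex3b (14.7% of its length), at Smurf1 (16.4%) and 1145 bp from Apob, the apolipoprotein of very low density lipoproteins (16.6%). Double knockout 1 alone called each of them, at −log10 p of 12.6, 11.7 and 15.7.

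Place relative to genes was not used by the rule. Of the 487 missing regions, 182 (37.4%) lay within 1 kb of either end of a protein-coding gene, 153 (31.4%) elsewhere inside a gene and 152 (31.2%) outside genes. Of regions called in all 8 libraries 52% lay at gene ends, of those missing from 1 double knockout 43.9%, and of all consensus regions 26%. Of the 645 regions missing from Ppara knockout in the same way, 17.8% lay at gene ends, 46.7% inside genes and 35.5% outside. Regions are not replicates, and the difference was not tested. The difference closed when 1 library was left out. Without Ppara knockout 2 the shares at gene ends were 30.8% for double knockout and 30.4% for Ppara knockout, by a mirrored rule that then uses Ppara knockout 1 alone. Without any other library they were 34.6% to 41.7% and 17.5% to 20.6%. With all libraries kept they were 39.9% and 10.9% in equal-number lists. At a −log10 q of at least 20 they were 65.2% and 21.3%, and at 50% cover 47.6% and 24.3%. Ppara knockout 2 also had the largest share of called regions at gene ends of the 8 libraries, 44.8%, against 39.9% in Ppara knockout 1, 37.9% and 40.3% in double knockout and 28.6% to 36% in the others. As a share of regions called in the other 6 libraries, 2.69% were missing at gene ends (Wilson 95% interval 2.33 to 3.11), 3.89% inside genes (3.33 to 4.54) and 5.65% outside genes (4.84 to 6.59). Those at gene ends were wider, with a median of 572 bp against 415 and 402 bp, and had the lower percentiles in Ppara knockout, with medians of 22.6 and 25.3 against 29 and 32.7 inside and 32.4 and 32.9 outside.

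**Figure D4:**
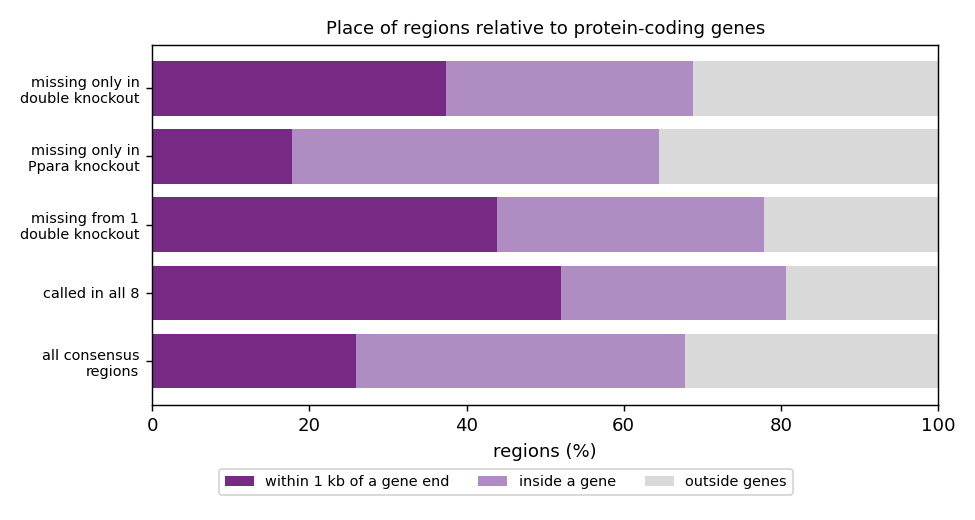
Share of regions within 1 kb of a gene end, elsewhere inside a gene and outside genes, for 5 sets of regions, in percent of each set. The gene end share is 37.4% for the missing regions, 17.8% for those missing only in Ppara knockout and 52% for those called in all 8 libraries. Without Ppara knockout 2 the first pair of shares is 30.8% and 30.4%.

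By start sites, 160 of the 472 missing regions on chromosomes covered by the RefSeq promoter table overlapped a promoter window, 250 bases before to 50 after a start (33.9%). The share was 48% of regions called in all 8 libraries and 12.8% of those missing only in Ppara knockout. These windows, 192 in number, had a median GC content of 60.2% and 19 CpG dinucleotides, against 63% and 24 for the 7049 windows under regions called in all 8 libraries and 52.7% and 7 for all 32817 windows. Motifs were searched on both strands in the whole windows. SP (GGGCGG) was in 61.5% of the windows of missing regions, 70.5% of those called in all 8 libraries and 35.6% of all windows. CCAAT was in 33.3%, 43% and 37.4%, the motif TATAAA in 7.81%, 5.01% and 13.6%, and the ETS motif CCGGAAGT in 10.4%, 10.3% and 3.89%. The cAMP response element TGACGTCA was in 3.65%, 3.43% and 1.79%, the C/EBP motif TTGCNNAA in 9.9%, 7.48% and 10.8%, AP-1 (TGANTCA) in 1.04%, 3.93% and 7.81%, and FOX (TGTTTAC) in 2.6%, 2.4% and 3.65%. DR1, searched as 2 AGGTCA copies with 1 base between them, was in 0 of 192 and 0 of 7049 windows and in 0.0396% of all, and HNF4A (CAAAGTCCA) in 0 of 192, 0.426% and 0.475%. A match is a description of letters, and no match says nothing about a factor's binding.

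The missing regions were spread over genes and chromosomes. Every chromosome but Y held some, at 2.52% (chromosome 19) to 5.18% (X, 10 of 193) of its regions called in the other 6 libraries. The 466 regions with a single nearest gene were assigned to 449 genes, of which 17 had 2 and none had 3 or more. At 285 of the 466 (61.2%) another region assigned to the gene was called in both double knockouts, and 83 were the gene's sole region. Of 322 that overlapped no promoter window, 104 had a promoter region of the gene called in all 8 libraries. These counts were not made for other sets of regions, so they cannot be read as high or low. One missing region, on chromosome 8 at 72469033 to 72469907, lay within 1 kb of a microRNA hairpin, Mir7068.

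The 17 genes with 2 missing regions were looked at after their values were seen. Abca1, the exporter of cholesterol to apolipoprotein A-I, had them 35984 and 98970 bp from the gene on chromosome 4 at 53195972 to 53196912 and 53258958 to 53259360. The farther one had a −log10 p of 27.5 and 59 in wild type, 76.7 and 61.5 in Cpt2 knockout, and 19.3 and 19 in Ppara knockout. Of 25 other regions assigned to Abca1, 3 were called in both double knockouts. Nampt, the enzyme that salvages nicotinamide to NAD, had them 54029 and 110727 bp away. The nearer one had 40 and 48, 67.5 and 35.2, and 14.3 and 21.5. Myc, the growth-promoting transcription factor, had them 45593 and 142525 bp away, and 15 of its 38 other regions were called in both double knockouts. The other 14 were Arap2, C1qtnf3, Efna1, Il17b, Jph4, Kalrn, Rad51b, Rbpms, Slc38a4, Slit3, Tnks1bp1, Trim29, Wdr91 and Wnt10a.

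Genes of fatty acid oxidation held no missing region, at a number of regions too small to tell this from the overall share. For mitochondrial oxidation, peroxisomal oxidation, ketogenesis and further PPARα targets, 74 genes in all, 0 of 78 regions called in the other 6 libraries were missing from the double knockouts, beside a background of 3.64% over all regions. A count of 0 allows up to 3.85%, which is above the background, so a share equal to it could not be told from 0 with 78 regions. Of these genes' regions 69 were called in all 8 libraries. In the mirrored count 7 of 94 (7.45%) were missing only in Ppara knockout, beside 4.58% over all regions. Lists of gluconeogenesis and fasting (51 regions), circadian clock (44), secreted liver proteins (34), and xenobiotic and bile acid metabolism (26) had 0 missing regions each, which allows up to 5.88%, 6.82%, 8.82% and 11.5%. Over all 12 lists 7 of 385 regions (1.82%) were missing. No missing region was assigned to Cpt2 or Ppara, of whose 3 and 25 regions 1 and 2 were called in all 8 libraries.

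The 7 regions belonged to 6 genes. In lipid synthesis, 2 of 36 regions were missing (5.56%, beside 3.64% over all regions). In the mirrored count it was 6 of 41 (14.6%, beside 4.58%). One lay 21123 bp from Scd1, the stearoyl-CoA desaturase (chromosome 19, 44372999 to 44373327), with a −log10 p of 36.9 and 41.2 in wild type, 43.4 and 38.9 in Cpt2 knockout, and 22.2 and 15.8 in Ppara knockout. The other lay 21983 bp from Elovl5, an elongase of polyunsaturated fatty acids (chromosome 9, 78006502 to 78007012), with 23.1 and 30.7, 50.7 and 24.3, and 12.9 and 19. Both showed the lowest values in Ppara knockout.

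Among stress response and AP-1 genes, 3 of 34 regions were missing (8.82%, beside 3.64% over all regions), at Myc and at Fosb, a subunit of AP-1. In Ppara knockout 0 of 38 regions of this list were missing in the mirrored count, beside 4.58% over all regions. With 38 regions a count of 0 could not be told from that share, and the 8.82% is 3 regions. The region inside Fosb (chromosome 7, 19308241 to 19308922) had a −log10 p of 26.5 and 71.8 in wild type, 49.5 and 21.5 in Cpt2 knockout, and 15.3 and 11.5 in Ppara knockout. The stronger of the 2 near Myc (chromosome 15, 62132886 to 62133286) had 18.1 and 33.9, 40.5 and 49.6, and 28.2 and 13.9. The weaker (61939319 to 61939748) had 20.3 and 26, 69.7 and 14, and 20.3 and 17.5, so Ppara knockout overlapped wild type at both sites. At the stronger site both Cpt2 knockout values were above the other 4.

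Of 77 regions of liver transcription factors 1 was missing (1.3%, beside 3.64% over all regions). It lay 118704 bp from Cebpb, which drives fasting and acute phase genes (chromosome 2, 167809136 to 167809624). Its −log10 p was 15.7 and 28.5, 22.8 and 27.4, and 14 and 12.2 in wild type, Cpt2 knockout and Ppara knockout. Of 5 regions of nonparenchymal markers 1 was missing (20%), too few regions to set against the 3.64%. It lay 20179 bp from Col1a1, a collagen of stellate cells (chromosome 11, 94915711 to 94916045), with 19.8 and 28.2, 21.3 and 19.4, and 19.7 and 18.7. The Ppara knockout values were under both wild type values there, and those of Cpt2 knockout overlapped both genotypes. Of these 7, the Scd1 region alone still met the rule in equal-number lists.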

How the data were processed

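The authors aligned ATAC-seq reads with BWA and called peaks with MACS2 2.1.0 on mm10, per the submitters' processing notes. How duplicates and the Tn5 cut position were handled is not given in the sources used here. The deposited list of each library holds, per peak, a score, a fold (ratio of pileup to background), a −log10 p and a −log10 q. The score was not needed here. The deposited consensus file has 49587 regions, each equal to a merged interval of the 8 lists. Read totals are unknown, and no count or signal per region was used, so no model or test was fitted.

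Calls, percentiles, distances and motif matches were computed with Python 3.11.15, NumPy 2.4.6, pandas 2.3.3 and SciPy 1.17.1, and plotted with matplotlib 3.10.9. Percentiles use the strongest overlapping peak, and Wilson intervals and limits for a count of 0 (3 counts) cover counting error alone. The interval code was tested on simulated regions. Genes are the nearest of 21900 protein-coding RefSeq genes on GRCm38.p6, and 17492 of them had a promoter window; chromosome 18 had none. Several nearest genes at equal distance were kept together.

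The members and lists were chosen with earlier results of these data known, and the ETS, SP, CCAAT and TATA motifs were added after the data were seen. Regions were named by rule: the 10 strongest and 3 weakest, the strongest per place and per gene list, and those nearest to and farthest from double knockout peaks. Alternatives were equal-number lists (the strongest 18132 peaks of each library), a −log10 q of at least 20, peaks covering at least 50% of a region, no peak of the missing genotype within 500 bp, a distance of 5 kb, all annotated genes, and leaving out each library.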

Additional observations from a re-analysis of the deposited data

How the results depend on the processing

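In equal-number lists 203 regions were missing only in double knockout, 2.01% of those called in the other 6 libraries, and 257 only in Ppara knockout. They included 99 of the 487 missing regions. At a −log10 q of at least 20 there were 293 (5.46%), 65.2% of them at gene ends, and 6 were among the 487, so that setting describes mostly other regions. Peaks covering at least 50% of a region gave 6.26%, with 47.6% at gene ends. Gene ends within 5 kb held 50.5% of the missing regions, and within 1 kb of any annotated gene 44.4%. Leaving out 1 library at a time gave 493 to 1859 missing regions (3.67% to 13.9%), 30.8% to 41.7% of them at gene ends, a median percentile of 38.8 to 48.6, and 649 to 2230 regions missing only in Ppara knockout. Counts rise by construction when fewer libraries have to agree. Of the 29 regions named by rule, 13 met it in equal-number lists, 3 at the stricter −log10 q, 18 at 50% cover and 26 with no double knockout peak within 500 bp; applying the alternatives to single regions was chosen after seeing the data. No paired analysis was possible because the results come from no test. The depth below the callers' limit is unknown, so a region missing from double knockout may be weakly open there.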

Other observations

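A few further missing regions are named here one by one, chosen after their values were seen, and they stand for no group of genes. The promoter region of Tpi1, the triosephosphate isomerase of glycolysis (chromosome 6, 124814019 to 124814446), had a −log10 p of 28.3 and 56.9 in wild type, 75.3 and 33.3 in Cpt2 knockout, and 16.8 and 16.1 in Ppara knockout. That of Khk, the first enzyme of fructose breakdown (chromosome 5, 30921578 to 30921988), had 35 and 41.7, 42.2 and 20.8, and 16.4 and 15.2. The promoter region of Gss, the glutathione synthetase (chromosome 2, 155592290 to 155593049), had 44.2 and 32.3, 36.6 and 23.2, and 14.6 and 13.4. In these 3 the Ppara knockout values were the lowest of the 6.

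Ppara knockout and wild type overlapped at other sites. A region 570 bp from Car3, an abundant carbonic anhydrase of liver (chromosome 3, 14862606 to 14862968), had 22 and 54.8, 58.7 and 27.9, and 20.7 and 30.2, so Ppara knockout 2 stood above wild type 1. The promoter region of Mtnr1a, a melatonin receptor (chromosome 8, 45068820 to 45069241), had 25.3 and 48.7, 54.2 and 54.4, and 12.1 and 32.7. They did not overlap at the region 2802 bp from Sult1e1, the estrogen sulfotransferase (chromosome 5, 87572815 to 87573166), which had 23.2 and 59.6, 63.2 and 68.2, and 20.3 and 18.5, with the nearest double knockout peak 9485 bp away.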
